A study of Mus musculus with 13 samples.

Results

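The genes described here are 42 genes of DNA repair and of the DNA damage checkpoint, chosen by name, though with earlier results of these data known. A gene was taken as measured where a probe set of the deposited table carried its symbol and no other, and 40 of the 42 were. No probe set carried Xrcc2 alone, a recombinase paralog, and none carried the spelling Claspn. Where a gene had several such probe sets, the one with the highest mean over the 13 arrays was read. The table holds 35556 probe sets, of which 23410 have a gene symbol and were tested, and covers 19938 genes by such single symbols.

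Cells repair DNA by several routes that differ in the lesion they meet. Homologous recombination copies an intact sister strand across a break, the Fanconi anaemia genes open crosslinks, mismatch repair corrects errors of replication, end joining rejoins broken ends, and excision repair cuts out damaged bases or short stretches of a strand. The kinases Atm and Atr sense breaks and stalled forks and hold the cell cycle through Chek2 and Chek1. In the intestine these genes guard crypts, where stem and progenitor cells divide fast. Several of the genes are known to be expressed most in cells that replicate their DNA.

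Affymetrix Mouse Gene 1.0 ST arrays were used to measure RNA in 3 groups of mouse small intestine, 1 array for each sample. These were intestinal adenomas (Adenoma, n = 3), normal epithelial cells beside adenomas with high FP expression (FP_hi, here FP-high, n = 4) and normal epithelial cells with low FP expression (FP_lo, here FP-low, n = 6). All mice were Apc mutants crossed with a transgenic strain expressing FPs, so no group is wild type. The sources used here do not name the Apc allele, the promoter of the transgene or the age of the mice, do not spell out FP, and do not say which samples share an animal.

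Crypts were picked by glass capillary, and RNA was amplified before labelling. Values are log2 levels as deposited, a difference is a difference of group mean log2 levels with its standard error (SE), and p-values come from limma with Benjamini-Hochberg adjustment over the 23410 probe sets. As the origin of the replicates is not stated, p-values measure only the spread between these samples, which may be technical. The small number of arrays limits their precision. In such bulk samples fewer cells of a type and less RNA per cell cannot be told apart. The array FP-high replicate 1 stood apart, with an SD of log2 values of 1.21 against 1.89 to 2.10 on the other 12 arrays. Its median correlation with the others was 0.762, against 0.943 to 0.968. Values without it are therefore given beside the results that it moves most. The mean log2 level of epithelial markers was 8.34 to 8.94 in adenomas, 6.43 to 8.96 in FP-high and 8.01 to 8.89 in FP-low samples, with the value of 6.43 on FP-high replicate 1.

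In FP-high against FP-low epithelium most repair and checkpoint genes had lower mean levels, by a median difference of -0.26, where the median over all tested probe sets was 0.05. All probe sets are not matched to these genes in level, as only 10 of the 40 lay below the median level of all probe sets. The mean was lower for 29 of 40 genes (72.5%), and lower for 43.7% of all probe sets. No gene of the 40 passed an adjusted p of 0.05, and neither did any of the 23410 probe sets in either direction (0.00%). The smallest adjusted p among the 40 was 0.263, for Fancb, a dim gene with a mean level at percentile 35.0 of all tested probe sets. At an unadjusted p under 0.05, 12 genes were lower (30.0%) and 1 was higher (2.5%), against 7.95% and 4.78% of all probe sets. With FP-high replicate 1 left out, the median was -0.32 and 31 genes had lower means, against 45.4% of all probe sets, and 9 genes were lower and 1 higher at that unadjusted p, against 4.84% and 3.69%. With arrays weighted by quality, limma again called 0 of the 40. For none of the 40 did the groups fail to overlap, which held for 1.51% of all probe sets with FP-high lower and for 0.743% with FP-high higher.

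The FP-high arrays differed among themselves. Counted against the FP-low mean, 27, 28, 24 and 31 of the 40 genes were lower on FP-high replicates 1 to 4, where 48.1%, 48.0%, 56.0% and 42.4% of all probe sets were lower. On FP-low replicates 1 to 6 themselves the count was 25, 25, 23, 10, 23 and 21 genes, and 42.8% to 58.8% of all probe sets. The 24 genes of FP-high replicate 3 lay within these counts, and the 27 and 28 little above the highest of them. Below the lowest of the 6 FP-low arrays lay 19, 15, 6 and 14 genes, and 34.6%, 13.9%, 14.1% and 14.2% of all probe sets. On FP-high replicate 3 the shares of the 40 genes, 60.0% and 15.0%, were thus close to those of all probe sets, and on replicates 2 and 4 they were well above them (70.0% and 37.5% on replicate 2, 77.5% and 35.0% on replicate 4).

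**Figure D1:**
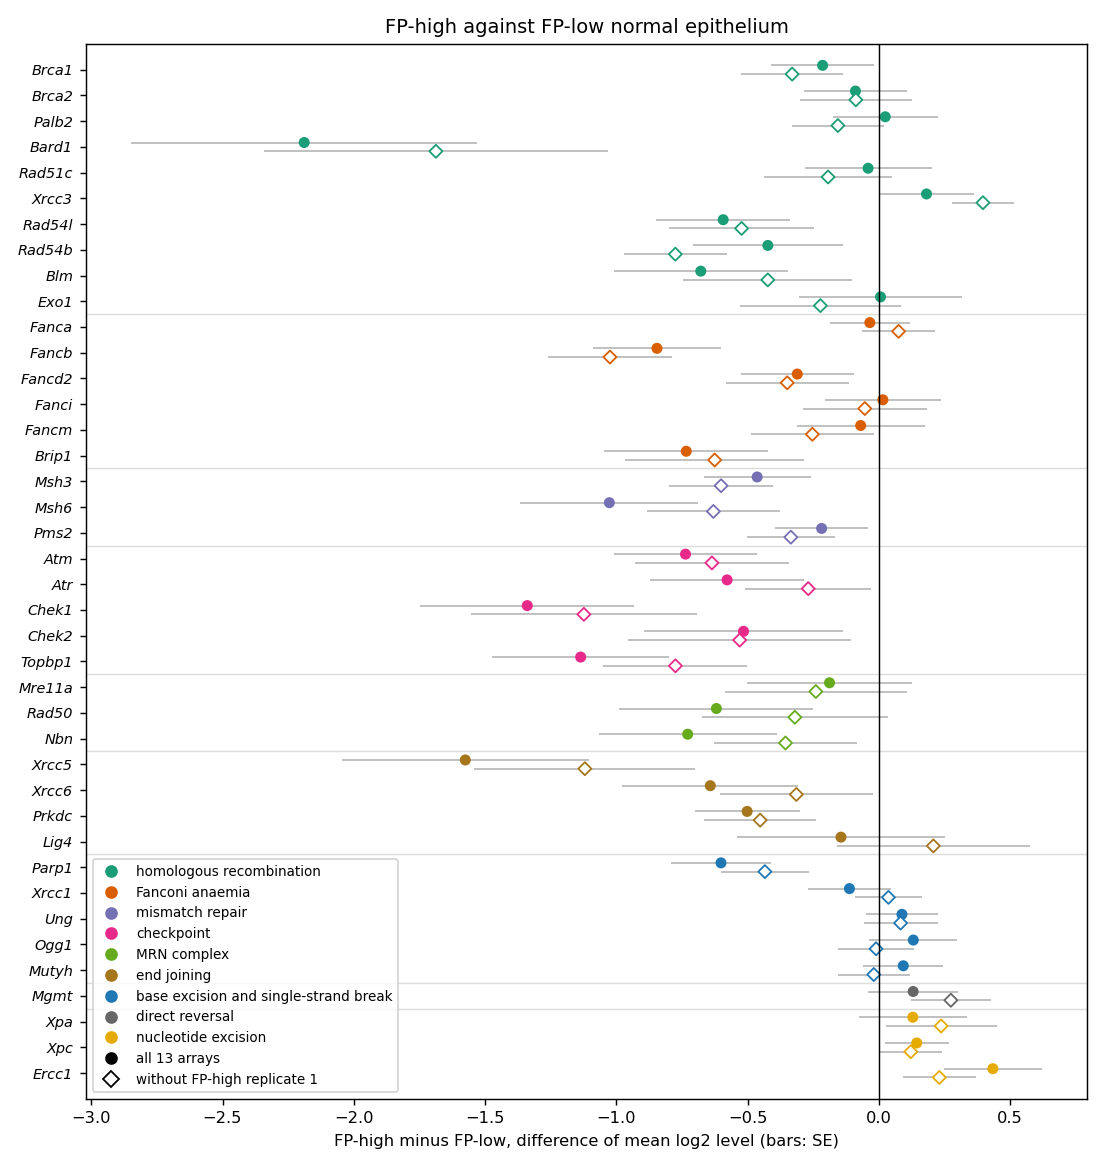
Difference of mean log2 level, FP-high minus FP-low, for the 40 measured genes, coloured by role, with bars of 1 SE. Filled circles use all 13 arrays and open diamonds leave out FP-high replicate 1; most points lie left of 0, from Bard1 at -2.19 to Ercc1 at 0.43, and the nucleotide excision genes lie right of it.

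Among the 10 measured genes of homologous recombination, 7 had lower means in FP-high samples, with a median difference of -0.15, and 9 did so without FP-high replicate 1, with a median of -0.28. Bard1, the partner of Brca1 in a ubiquitin ligase, had log2 levels of 3.70, 4.92, 4.91 and 7.29 on FP-high replicates 1 to 4, against 6.35, 6.99 and 9.39 as lowest, median and highest of the FP-low arrays. FP-high replicate 4 lay within the FP-low range and the other 3 below it. The difference was -2.19 ± 0.66 (SE, adjusted p = 0.286) and -1.69 without FP-high replicate 1, but the other probe sets of Bard1 gave -0.37 and 0.14. Rad54l, a motor protein that works with the recombinase on DNA, had 4.81, 5.92, 4.53 and 4.81 on the FP-high arrays, against 5.24, 5.59 and 5.92 as lowest, median and highest of FP-low. FP-high replicate 2 was level with the highest FP-low array and the others lay below them all, and the difference was -0.59 ± 0.25 (adjusted p = 0.390).

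The other genes of this route differed less. The helicase Blm had a difference of -0.68 ± 0.33, or -0.42 without FP-high replicate 1, and Rad54b, a relative of Rad54l, one of -0.42 ± 0.29. Without FP-high replicate 1, Rad54b differed by -0.78 and its FP-high arrays all lay below the FP-low arrays, while those of Xrcc3, a recombinase paralog, all lay above them with a difference of 0.40. Fancb joined Rad54b in lying wholly below, so that 2 genes were lower and 1 higher without overlap, against 1.81% and 1.39% of all probe sets. Brca1 and Brca2, which bring repair proteins to breaks, differed by -0.21 ± 0.20 and -0.09 ± 0.20, with Brca1 at -0.33 without that array. The bridging protein Palb2, the paralog Rad51c and the exonuclease Exo1 lay at 0.02, -0.04 and 0.01, and at -0.16, -0.19 and -0.22 without it.

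Of the 6 Fanconi anaemia genes, 5 had lower means in FP-high samples, with a median difference of -0.19, and of -0.30 without FP-high replicate 1. Fancb, a subunit of the core complex that marks crosslinks, had 4.13, 3.30, 3.46 and 3.47 on FP-high replicates 1 to 4, against 3.73, 4.49 and 5.0 as lowest, median and highest of FP-low. FP-high replicate 1 was the only FP-high array within the FP-low range. The difference was -0.85 ± 0.24 with all arrays and -1.02 without that array, at a dim mean level (percentile 35.0 of all tested probe sets). The helicase Brip1 differed by -0.73 ± 0.31 (adjusted p = 0.390) and Fancd2, which the core complex ubiquitinates, by -0.31 ± 0.22. Fanca, Fanci and Fancm, of which Fanci is the partner of Fancd2, lay between -0.07 and 0.02, and between -0.25 and 0.08 without FP-high replicate 1.

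All 3 mismatch repair genes had lower means, with a median difference of -0.46 and of -0.60 without FP-high replicate 1. Msh3 and Msh6 are the alternative partners of the mismatch sensor, and Pms2 is the nuclease subunit that acts after it. Msh3 had 5.13, 4.11, 4.37 and 5.26 on FP-high replicates 1 to 4, against a narrow FP-low range of 5.05 to 5.34 around a median of 5.17. Replicates 2 and 3 lay below this range and replicates 1 and 4 within it. The difference was -0.46 ± 0.20 (adjusted p = 0.390). Msh6 averaged 5.87 ± 0.88 in FP-high and 6.90 ± 0.29 in FP-low samples (SD, n = 4 and 6), a difference of -1.03 ± 0.34 (adjusted p = 0.336) and of -0.63 without FP-high replicate 1. Pms2 differed by -0.22 ± 0.18, and by -0.34 without that array.

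All 5 measured checkpoint genes had lower means, with a median difference of -0.74 and of -0.64 without FP-high replicate 1. Chek1, the effector kinase of Atr, had 3.94, 4.12, 6.09 and 4.19 on FP-high replicates 1 to 4, against 5.20, 5.94 and 6.72 as lowest, median and highest of FP-low. Replicate 3 sat in the middle of the FP-low arrays and the other 3 lay at least 1 log2 unit below the lowest of them. The difference was -1.34 ± 0.41 (adjusted p = 0.291), and without FP-high replicate 3 it was -1.84 with an adjusted p of 0.0272, the only leaving out of an array that brought a gene of the 40 past the threshold.

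Topbp1, which activates Atr at stalled forks, had 4.52, 6.32, 6.34 and 5.24 on the FP-high arrays, against 6.21, 6.75 and 7.28 as lowest, median and highest of FP-low. Replicates 1 and 4 lay below the FP-low range and replicates 2 and 3 near its lower end. Its difference was -1.14 ± 0.34 (adjusted p = 0.278) and -0.77 without FP-high replicate 1. Atm differed by -0.74 ± 0.27, Atr by -0.58 ± 0.29 and Chek2, the effector kinase of Atm, by -0.52 ± 0.38. The difference of Atr was -0.27 without FP-high replicate 1. Claspin, which couples Atr to Chek1, is written Clspn in RefSeq, and that probe set, not counted among the 40, differed by -0.48 ± 0.20 (adjusted p = 0.389).

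The genes of the complex that binds broken ends, Mre11a, Rad50 and Nbn, had a median difference of -0.62, and of -0.32 without FP-high replicate 1. Nbn had 4.54, 6.09, 6.23 and 5.76 on the FP-high arrays, against 5.72, 6.36 and 7.07 as lowest, median and highest of FP-low. FP-high replicate 1 alone lay below the FP-low range. Its difference was -0.73 ± 0.34, and -0.36 without that array, but a second Nbn probe set gave 0.12. Rad50 had 5.03, 5.94, 6.39 and 6.36 on the FP-high arrays, against 5.87, 6.60 and 7.13 as lowest, median and highest of FP-low, again with replicate 1 alone below the range. Its difference was -0.62 ± 0.37, and -0.32 without that array. The nuclease Mre11a differed by -0.19 ± 0.31.

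The 4 end joining genes all had lower means, with a median difference of -0.57, and 3 of 4 without FP-high replicate 1, with a median of -0.38. Xrcc5, a subunit of the Ku ring that clasps broken ends, had 4.26, 5.89, 6.75 and 5.60 on FP-high replicates 1 to 4, against 6.20, 7.13 and 8.12 as lowest, median and highest of FP-low. Only replicate 3 lay within the FP-low range. The difference was -1.58 ± 0.47 (adjusted p = 0.284) and -1.12 without FP-high replicate 1. Prkdc, the kinase that Ku recruits, had 4.64, 4.43, 5.37 and 4.73, against 4.81, 5.28 and 5.77 as lowest, median and highest of FP-low, and again only replicate 3 lay within the range. Its difference was -0.50 ± 0.20 (adjusted p = 0.388). Xrcc6, the other Ku subunit, had 4.47, 6.18, 5.94 and 5.23 on the FP-high arrays, of which only replicate 1 lay below the FP-low minimum of 5.18. It differed by -0.64 ± 0.33, and by -0.31 without FP-high replicate 1. The ligase Lig4 differed by -0.14 ± 0.40 and by 0.21 without that array.

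Genes of excision and direct repair had means on both sides of those in FP-low samples, with Parp1 the lowest relative to FP-low. Parp1, which senses strand breaks and makes poly(ADP-ribose), had 5.33, 5.90, 6.29 and 5.82 on FP-high replicates 1 to 4, against 6.09, 6.54 and 6.72 as lowest, median and highest of FP-low. Replicate 3 lay within the FP-low range and the others below it, and the difference was -0.60 ± 0.19 (adjusted p = 0.318). The scaffold Xrcc1, the glycosylases Ung, Ogg1 and Mutyh and the methyltransferase Mgmt lay between -0.11 and 0.13, and between -0.02 and 0.27 without FP-high replicate 1. Ung, at 5.24, 5.12, 5.40 and 5.14 on the FP-high arrays, stayed within the FP-low range of 4.86 to 5.50. The 3 nucleotide excision genes had higher means, with a median difference of 0.14, and of 0.23 without that array. Other genes of that route went the other way, with lower means for 15 of 17, by a median of -0.28. Without FP-high replicate 1 these were 14 of 17 and -0.16. Ercc1, a subunit of a nuclease that cuts the damaged strand, had 6.33, 5.61, 5.74 and 5.21 on the FP-high arrays, against 5.16, 5.27 and 5.43 as lowest, median and highest of FP-low. Its difference was 0.43 ± 0.19 (adjusted p = 0.390), and 0.23 without FP-high replicate 1, the highest of the arrays. Xpa had 5.84, 6.78, 5.82 and 6.20, with only replicate 2 above the FP-low range of 5.80 to 6.32, and differed by 0.13 ± 0.21, or by 0.24 without replicate 1. Xpc, which recognises distorted DNA, differed by 0.14 ± 0.12.

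**Figure D2:**
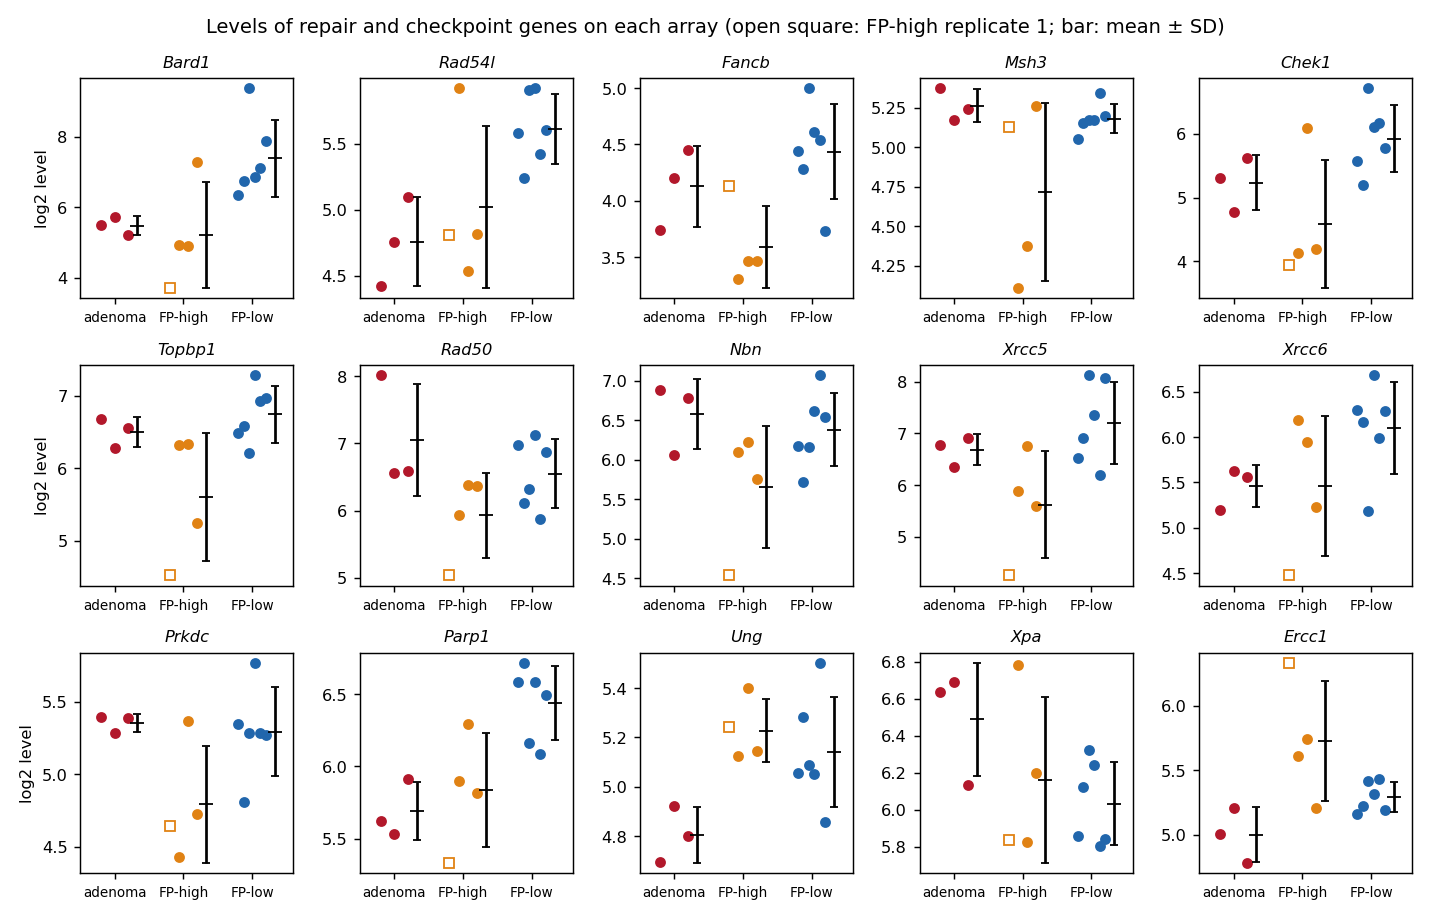
Log2 level of the 15 genes that were among the 6 with the smallest p in at least 1 of the 3 comparisons, by array (points; open squares mark FP-high replicate 1) and by group mean ± SD (bars), with adenomas on the left, FP-high in the middle and FP-low on the right. The vertical axes differ in range and do not start at 0; FP-high replicate 3 lies among the FP-low arrays for Chek1, Xrcc5, Prkdc and Parp1.

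Promoters of these genes were read for the letters that E2F factors, which switch on genes at the start of S phase, are known to bind. RefSeq windows of GRCm38.p6, from 250 bases before to 50 after the start of the gene, were at hand for 33 of the 42 genes. The letters searched on both strands were TTTCCCGC, TTTCGCGC, TTTGCCGC and TTTGGCGC, of which a match on one strand can overlap a match on the other. They occurred in 8 of the 33 genes (24.2%), against 575 of 17491 protein-coding genes (3.29%). The 8 genes were Bard1, Brca2, Chek2, Msh3, Msh6, Rad51c, Topbp1 and Xrcc6. In FP-high against FP-low samples their means were lower for 8 of 8, with a median difference of -0.58, and for 16 of the 25 others, with a median of -0.14. Leaving out FP-high replicate 1 gave 8 of 8 with a median of -0.57 and 17 of 25 with a median of -0.24. In adenomas against FP-low the means were lower for 7 of 8, with a median of -0.22, and for 21 of 25, with a median of -0.16. Against FP-high they were lower for 3 of 8 and 12 of 25, with medians of 0.32 and 0.01. In FP-high against FP-low the genes with a match ranged from -2.19 to -0.04. Those without ranged from -1.58 (Xrcc5) to 0.43 (Ercc1), and Chek1, at -1.34, had no match. This is a description without a test, and a match is not a shown binding site.

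The windows of 4 of these genes, all described by array or by group above, are printed to show where the letters lie. That of Ercc1, with no match, is printed because its mean was the one most above FP-low. The 4 are those with an unadjusted p under 0.05 in FP-high against FP-low, so the windows cannot show whether matches go with direction. Not printed are Brca2 (-0.09) and Rad51c (-0.04), with a match, and Xrcc5 (-1.58) and Chek1 (-1.34), without one. They lie at chr9:103305077-103305376 on the plus strand (Topbp1), chr17:87974800-87975099 on the plus strand (Msh6), chr13:92354954-92355253 on the minus strand (Msh3), chr1:71102923-71103222 on the minus strand (Bard1) and chr7:19344821-19345120 on the plus strand (Ercc1), each of 300 bases. Capitals mark E2F letters, and in Bard1 also TTTGAA, the letters of the cell cycle homology region, which 1 of 33 genes (3.03%) and 18.5% of protein-coding genes hold.
Topbp1: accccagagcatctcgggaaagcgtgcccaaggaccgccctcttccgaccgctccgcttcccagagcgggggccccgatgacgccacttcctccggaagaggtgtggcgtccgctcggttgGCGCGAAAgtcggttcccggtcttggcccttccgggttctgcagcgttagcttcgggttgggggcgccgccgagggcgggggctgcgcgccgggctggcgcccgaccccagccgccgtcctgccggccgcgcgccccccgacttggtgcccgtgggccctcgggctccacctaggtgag
Msh6: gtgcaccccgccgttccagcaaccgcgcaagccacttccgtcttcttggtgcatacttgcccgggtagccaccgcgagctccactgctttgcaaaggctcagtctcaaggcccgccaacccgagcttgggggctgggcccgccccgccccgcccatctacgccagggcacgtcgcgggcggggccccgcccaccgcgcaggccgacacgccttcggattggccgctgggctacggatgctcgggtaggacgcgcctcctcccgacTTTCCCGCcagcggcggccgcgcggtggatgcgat
Msh3: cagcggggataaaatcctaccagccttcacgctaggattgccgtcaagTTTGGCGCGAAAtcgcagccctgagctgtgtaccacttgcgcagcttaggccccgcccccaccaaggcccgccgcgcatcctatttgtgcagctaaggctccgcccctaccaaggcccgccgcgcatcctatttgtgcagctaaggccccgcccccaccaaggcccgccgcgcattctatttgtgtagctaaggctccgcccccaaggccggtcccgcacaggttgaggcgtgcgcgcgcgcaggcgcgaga
Bard1: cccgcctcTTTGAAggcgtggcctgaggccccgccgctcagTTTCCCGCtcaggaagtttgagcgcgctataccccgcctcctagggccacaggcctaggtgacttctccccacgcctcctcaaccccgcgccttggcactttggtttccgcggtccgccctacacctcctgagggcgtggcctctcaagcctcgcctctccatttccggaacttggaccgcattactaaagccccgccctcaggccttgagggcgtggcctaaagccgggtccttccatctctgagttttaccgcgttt
Ercc1: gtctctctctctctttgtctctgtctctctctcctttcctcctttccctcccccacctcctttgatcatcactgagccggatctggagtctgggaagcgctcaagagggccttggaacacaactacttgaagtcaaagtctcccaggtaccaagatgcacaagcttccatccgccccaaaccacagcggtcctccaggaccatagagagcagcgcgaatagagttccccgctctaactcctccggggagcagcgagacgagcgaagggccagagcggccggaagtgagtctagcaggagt
Counted from the start site, the match began at -129 in Topbp1, at 16 in Msh6, at -202 and, overlapping on the other strand, at -198 in Msh3, and at -209 in Bard1, where TTTGAA began at -242. The letters CCAAT, bound by NF-Y, were in 20 of 33 genes (60.6%) and in 42.3% of protein-coding genes.

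Genes of cell division were lower on the same FP-high arrays as the repair genes. The mean of the 40 genes, relative to the FP-low mean, was -0.61, -0.42, -0.17 and -0.41 on FP-high replicates 1 to 4, and between -0.10 and 0.17 on the FP-low arrays. For 23 S phase genes the values were -1.11, -0.50, -0.16 and -0.67, against -0.12 to 0.17. For 19 mitosis genes they were -1.72, -0.53, -0.43 and -1.32, against -0.43 to 0.19. FP-high replicate 3 was thus the nearest to FP-low in all 3 lists. Of the 42 S phase and mitosis genes 40 had lower means in FP-high, 27 of them at an unadjusted p under 0.05 and 0 at an adjusted p of 0.05. The smallest p belonged to the polymerase subunit Pola1 (-1.33 ± 0.25), the helicase subunit Mcm4 (-1.23 ± 0.23) and the spindle protein Prc1 (-1.81 ± 0.36).

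Markers of cell types differed between the same groups. Of all probe sets 43.7% had lower means in FP-high, and 45.4% without FP-high replicate 1. All 14 enterocyte genes had higher means in FP-high, by a median of 0.64, and of 1.37 without FP-high replicate 1. The mean of the list ranged, however, from -1.64 to 2.26 on the FP-high arrays and from -1.29 to 1.16 on the FP-low arrays, relative to the FP-low mean. All 12 stem cell genes had lower means, by a median of -0.41, and 9 of 12 without FP-high replicate 1, by a median of -0.18, with a range from -1.36 to 0.03 on the FP-high and from -0.26 to 0.12 on the FP-low arrays. Of 12 T cell and lymphocyte genes 11 had higher means, with a range from 0.01 to 0.90 on the FP-high and from -0.55 to 0.35 on the FP-low arrays. All 6 Paneth cell genes had lower means, by a median of -1.32, and 5 of 6 without FP-high replicate 1, by a median of -0.32. Of 7 goblet cell genes 5 had lower means, with a median of -0.61, and 2 without FP-high replicate 1, with a median of 0.24. No gene of these lists was called. The part of dividing cells and of cell composition in the values of the repair genes was not tested.

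**Figure D3:**
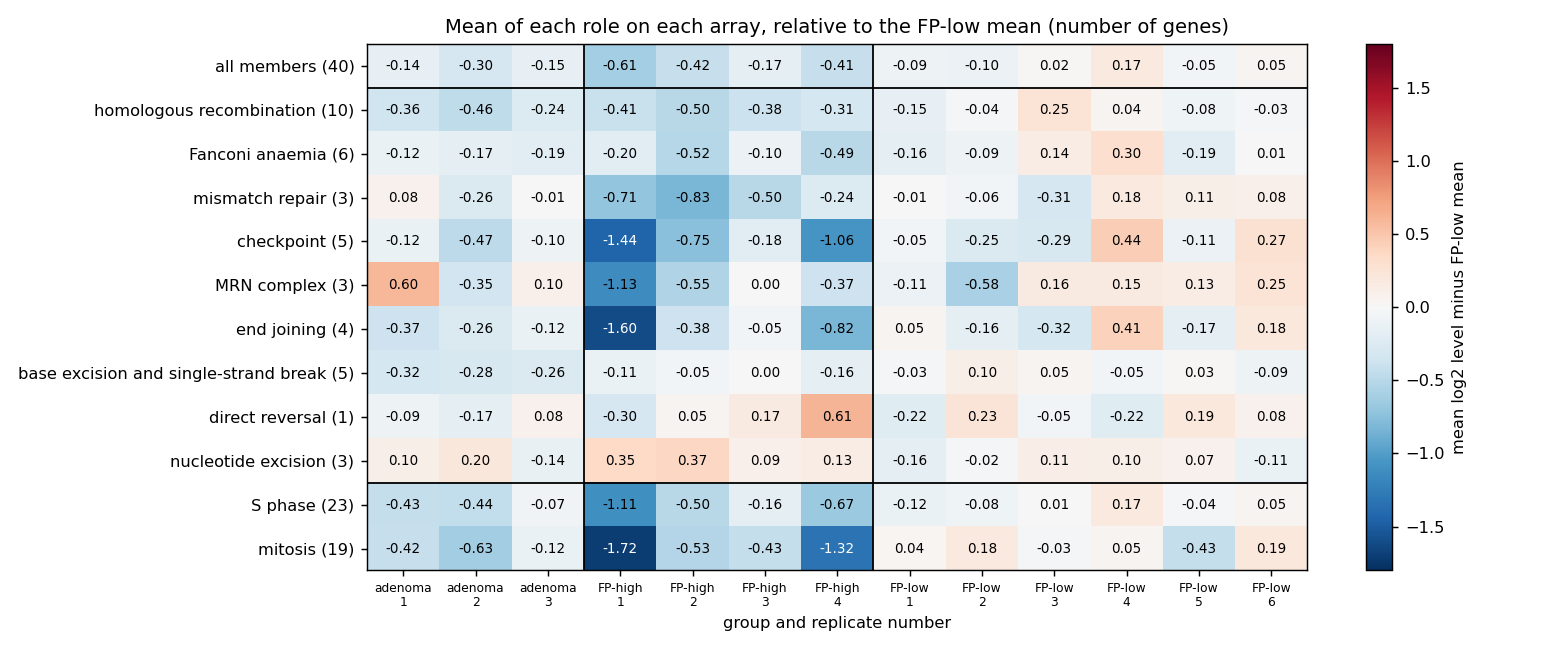
Mean log2 level of each role on each array minus the mean of the 6 FP-low arrays, with the number of genes in brackets and S phase and mitosis genes below. Checkpoint genes stand at -1.44, -0.75, -0.18 and -1.06 on FP-high replicates 1 to 4, and base excision genes at -0.32, -0.28 and -0.26 on adenoma replicates 1 to 3.

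In adenomas against FP-low epithelium most repair and checkpoint genes had slightly lower means and few stood apart. The median difference was -0.16, against -0.06 over all probe sets, and means were lower for 31 of 40 genes (77.5%), against 61.0%. No gene of the 40 was called, against 0.534% of all probe sets called higher and 0.0171% called lower. With arrays weighted by quality, limma called 1, Parp1. At an unadjusted p under 0.05, 4 were lower and 0 higher, against 3.20% and 4.24%. Groups did not overlap for 3 genes, Bard1, Rad54l and Parp1, all lower in adenomas, against 5.64% of all probe sets. On adenoma replicates 1 to 3, 26, 32 and 24 of the 40 genes lay below the FP-low mean, where 57.6%, 58.2% and 61.2% of all probe sets did. On the FP-low arrays themselves 10 to 25 of the 40 genes did.

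Parp1 came nearest to a call. Its levels were 5.62, 5.53 and 5.92 on the adenoma arrays, against 6.09, 6.54 and 6.72 as lowest, median and highest of FP-low, so that every adenoma lay below every FP-low sample. The difference was -0.75 ± 0.21 with an adjusted p of 0.217. Under quantile normalization the adjusted p was 0.0304, and with array weights 0.0056, where 158 and 868 probe sets were called. Without FP-high replicate 1, where 370 probe sets were called, it was 0.0535 and not a call.

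The same held for 2 recombination genes in sign and separation. Rad54l had 4.42, 4.76 and 5.09 in adenomas, all below the FP-low minimum of 5.24, and differed by -0.86 ± 0.28 (adjusted p = 0.355). Bard1 had 5.49, 5.73 and 5.21, all below the FP-low minimum of 6.35, and differed by -1.91 ± 0.72 (adjusted p = 0.498). The other Bard1 probe sets gave 0.16 and 0.21, of the opposite sign.

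All 5 base excision and strand break genes had lower means in adenomas than in FP-low, with a median difference of -0.18. Ung, which removes uracil from DNA, had 4.69, 4.92 and 4.80 in adenomas, against 4.86, 5.07 and 5.50 as lowest, median and highest of FP-low. The ranges overlapped at 1 adenoma, and the difference was -0.33 ± 0.15 (adjusted p = 0.656). Mutyh, which removes adenine opposite oxidised guanine, differed by -0.18 ± 0.17. Xrcc1 and Ogg1 differed by -0.13 ± 0.17 and -0.05 ± 0.18. Mgmt, which strips alkyl groups from guanine, differed by -0.06 ± 0.19.

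Other genes had small differences from FP-low or ones that varied with the array. Xrcc6 had 5.19, 5.63 and 5.55 in adenomas, against 5.18, 6.23 and 6.68 as lowest, median and highest of FP-low, a difference of -0.64 ± 0.37 (adjusted p = 0.795). Xpa, which verifies damage in nucleotide excision, had 6.64, 6.69 and 6.13, against 5.80, 5.99 and 6.32. Adenoma replicates 1 and 2 lay above all FP-low samples, and the difference was 0.46 ± 0.23 (adjusted p = 0.710). The 5 checkpoint genes ranged from -0.69 for Chek1 to 0.16 for Atr, and the 3 mismatch repair genes from -0.26 for Msh6 to 0.08 for Msh3. Fanconi anaemia genes had a median of -0.19 and recombination genes of -0.16, with 5 of 6 and 9 of 10 lower. End joining genes had a median of -0.23 and the end-binding complex of 0.19.

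In adenomas against FP-high epithelium the values of the same adenoma arrays are set against the 4 FP-high arrays, which also entered the first comparison. The median difference was 0.18, against -0.11 over all probe sets, and 0.12 without FP-high replicate 1. Means were higher for 23 of 40 genes, against 40.4% of all probe sets. None of the 40 was called, also not with array weights, against 0.748% of all probe sets called higher and 0.0171% called lower. At an unadjusted p under 0.05, 5 genes were higher and 2 lower, against 8.38% and 7.36%, and without FP-high replicate 1 these were 3 and 3, against 7.35% and 8.69%. Groups did not overlap for 1 gene higher in adenomas, Rad50, and for 2 lower, Ung and Ercc1, against 6.74% and 10.4%. The groups of Ercc1 met at 5.2086.

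Checkpoint, mismatch repair and end-binding genes had the higher means. The 5 checkpoint genes all had higher means, by a median of 0.65, as had the 3 mismatch repair genes, by 0.54, and 2 of 3 genes of the end-binding complex, with a median of 0.92 over the 3. Without FP-high replicate 1 the same counts had higher means, and the medians were 0.43, 0.37 and 0.55. Rad50, the coiled-coil subunit of that complex, had 8.01, 6.55 and 6.59 in adenomas, against 5.03, 5.94, 6.39 and 6.36 on FP-high replicates 1 to 4. Adenoma replicate 1 stood well above the others. The difference was 1.12 ± 0.44 (adjusted p = 0.266), and 0.82 without FP-high replicate 1. Nbn had 6.88, 6.07 and 6.78 in adenomas and differed by 0.92 ± 0.40 (adjusted p = 0.302), or by 0.55 without that array, where its second probe set gave -0.38. Without FP-high replicate 1 the groups did not overlap for 4 genes higher in adenomas (Rad54b, Fancb, Pms2 and Rad50) and 4 lower (Xrcc3, Xrcc1, Ung and Ercc1), against 8.30% and 15.6%.

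Topbp1 had 6.67, 6.27 and 6.56 in adenomas, and the lowest of these lay within the FP-high range that reached 6.34, while FP-high replicates 1 and 4 lay well below. The difference was 0.89 ± 0.40 (adjusted p = 0.308), and 0.53 without FP-high replicate 1. Msh3 had 5.37, 5.17 and 5.24 and differed by 0.54 ± 0.24 (adjusted p = 0.308). Chek1 had 5.31, 4.77 and 5.62, of which each lay above 3 FP-high arrays and below replicate 3, and differed by 0.65 ± 0.48, or by 0.43 without FP-high replicate 1. Prkdc had 5.40, 5.28 and 5.39 and differed by 0.56 ± 0.24 (adjusted p = 0.291). Xrcc5 had 6.78, 6.35 and 6.92 and differed by 1.06 ± 0.56, or by 0.61 without FP-high replicate 1, while Xrcc6 averaged 5.46 in both groups and differed by -0.33 without that array.

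Ercc1 had the smallest adjusted p of the 40 in this comparison. Its levels were 5.01, 5.21 and 4.78 in adenomas, against 6.33, 5.61, 5.74 and 5.21 in FP-high. The highest adenoma and the lowest FP-high array, replicate 4, both stood at 5.2086. No visible gap thus separated the groups, with or without FP-high replicate 1. The difference was -0.73 ± 0.22 (adjusted p = 0.190), and -0.52 without FP-high replicate 1. Ung was lower in all 3 adenomas, at 4.69 to 4.92, than on the FP-high arrays, at 5.12 to 5.40, with a difference of -0.42 ± 0.16 (adjusted p = 0.264). The 5 base excision and strand break genes all had lower means, with a median of -0.18. Fancb, at 3.74, 4.20 and 4.45 in adenomas, differed by 0.54 ± 0.29, and Bard1 by 0.27 ± 0.78, which turned to -0.23 without FP-high replicate 1.

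**Figure D4:**
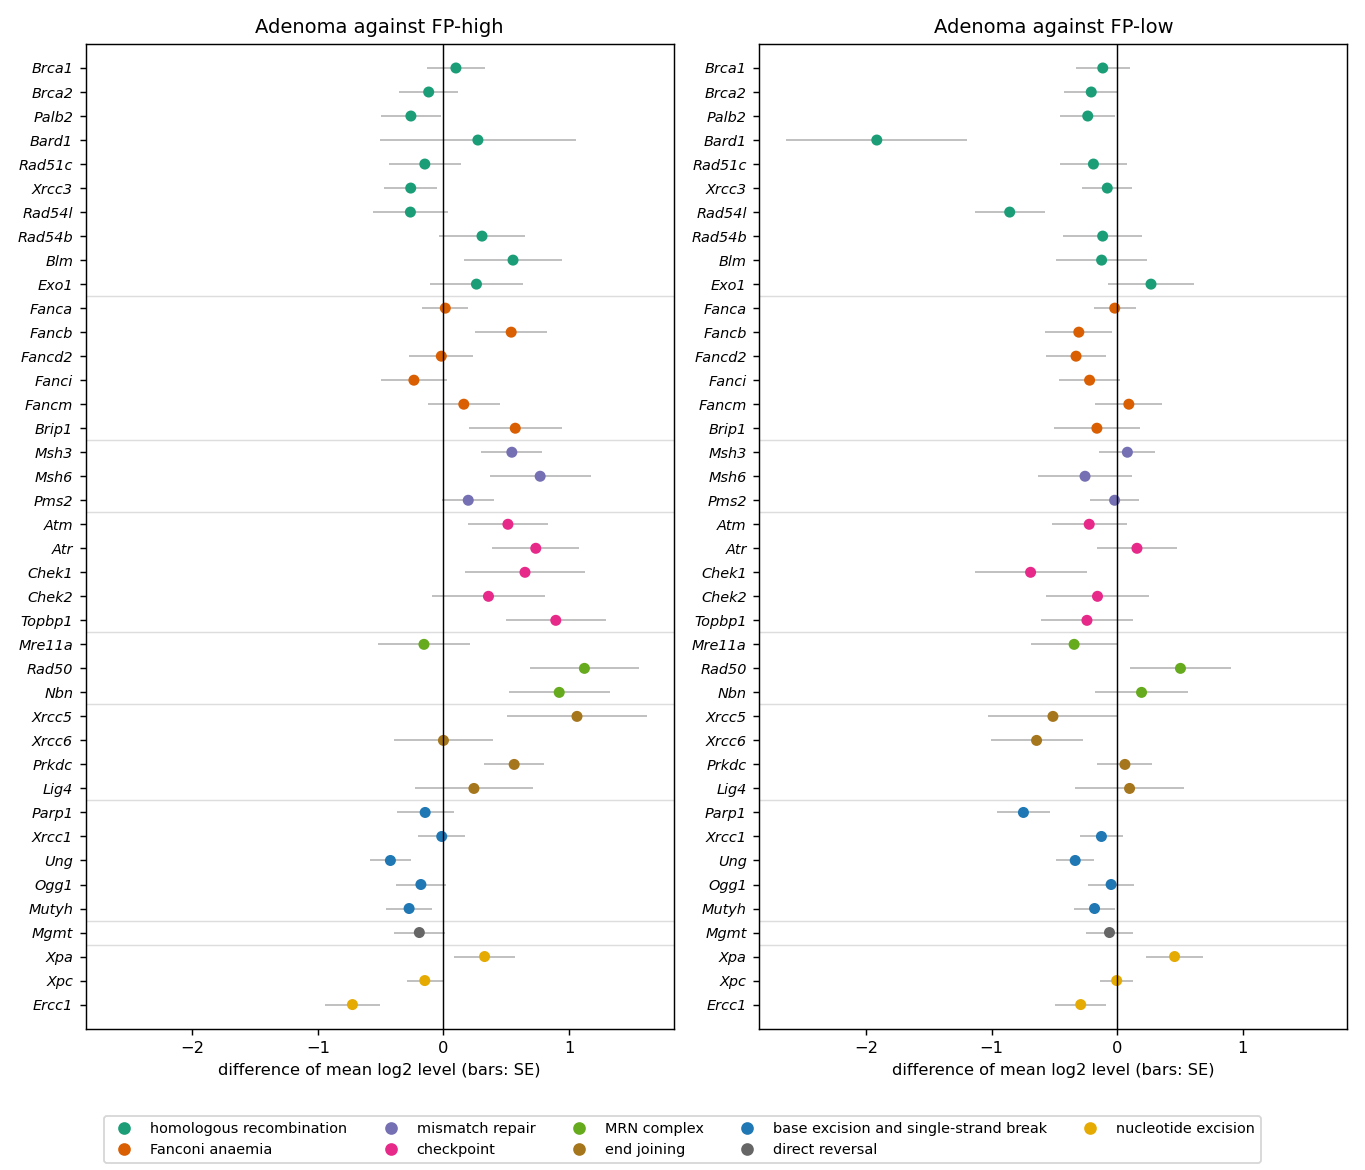
Difference of mean log2 level for the 40 measured genes, adenoma minus FP-high on the left and adenoma minus FP-low on the right, with bars of 1 SE and colours by role. Checkpoint genes lie right of 0 on the left and between -0.24 and 0.16 on the right, apart from Chek1 at -0.69, and base excision genes lie left of 0 on both sides.

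Genes of the same routes beyond the 42 were read from lists of 123 genes, of which 112 were measured. In FP-high against FP-low samples 84 of the 112 had lower means, against 43.7% of all probe sets. The median difference was -0.27, and -0.16 without FP-high replicate 1. None of the 112 was called, and 27 were lower and 0 higher at an unadjusted p under 0.05, against 7.95% and 4.78% of all probe sets. The smallest p belonged to the clamp loader subunit Rfc4 (-1.49 ± 0.35, adjusted p = 0.195), the end-protection factor Rif1 (-1.02 ± 0.25, adjusted p = 0.210) and Tipin, a fork protection protein (-1.92 ± 0.49, adjusted p = 0.226). Among 11 mismatch repair genes beyond Msh3, Msh6 and Pms2, 10 had lower means, as had 16 of 19 checkpoint, 15 of 17 nucleotide excision and 10 of 11 translesion genes. Homologous recombination and Fanconi genes had 20 of 30 lower, and base excision genes 10 of 18. End joining genes beyond the 4 above had 3 of 6 lower.

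In adenomas against FP-low samples 73 of the 112 had lower means, with a median of -0.10, against 61.0% of all probe sets. At an unadjusted p under 0.05, 4 of the 112 were lower and 5 higher, against 3.20% and 4.24% of all probe sets. The smallest p belonged to Rfc5 (-0.57 ± 0.19), Fancf (-0.50 ± 0.18) and Swi5 (-1.01 ± 0.37), with no call among the 112. Translesion genes, whose polymerases copy past lesions, had higher means for 10 of 11, with a median of 0.24. Against FP-high samples the adenomas had higher means for 69 of the 112, against 40.4% of all probe sets. At an unadjusted p under 0.05, 18 of the 112 were higher and 4 lower, against 8.38% and 7.36% of all probe sets. Rif1 (1.33 ± 0.29, adjusted p = 0.0592) and Xrcc4, the partner of Lig4 (1.91 ± 0.44, adjusted p = 0.0688), came nearest to a call, followed by Ccnh, a cyclin subunit of the repair and transcription factor TFIIH (1.07 ± 0.30).

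Targets that p53 induces after damage showed no common direction. Of 22 measured genes 13 had higher means in FP-high than in FP-low, with a median difference of 0.04, and 13 in adenomas against FP-low, with a median of 0.13. The first count was 11 of 22 when FP-high replicate 1 was left out. Among all probe sets the mean was lower for 43.7% in the first comparison and for 61.0% in the second. None of the 22 was called with all arrays. In FP-high against FP-low the smallest p belonged to Phlda3 (0.38 ± 0.14), Zmat3 (0.38 ± 0.17) and Ei24 (-1.06 ± 0.59). In adenomas the kinase Plk2 had the smallest p, with 1.47 ± 0.32 against FP-low (adjusted p = 0.0842, and 0.0497 without FP-high replicate 1, a call) and 1.48 ± 0.35 against FP-high (adjusted p = 0.0793). Mdm2, the ligase that degrades p53, differed by 0.66 ± 0.22 and 0.76 ± 0.24. Next were Sesn2 against FP-low (-0.51 ± 0.23) and Trp53inp1 against FP-high (1.22 ± 0.36).

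Cell division genes in adenomas had lower means than in FP-low for 37 of 42, against 61.0% of all probe sets, with a median of -0.37. They had higher means than in FP-high for 34 of 42, against 40.4% of all probe sets, with a median of 0.30. This last count was 26 of 42 when FP-high replicate 1 was left out, and the median 0.10. None was called in either comparison with all arrays. Ccne2, a cyclin of the entry into S phase, differed by 1.02 ± 0.40 from FP-low and by 1.77 ± 0.43 from FP-high (adjusted p = 0.0876). The smallest p against FP-low after it belonged to Gins2 (-0.70 ± 0.28) and Nusap1 (-0.86 ± 0.35, called without FP-high replicate 1 with an adjusted p of 0.0403), and against FP-high to Mcm4 (1.14 ± 0.27) and Prc1 (1.61 ± 0.42).

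Cell type markers also differed in adenomas. Of all probe sets 61.0% had lower means than in FP-low, and 40.4% had higher means than in FP-high. Of the 12 stem cell markers 11 had higher means than in FP-high, and 8 without FP-high replicate 1. Lgr5, a receptor of crypt base stem cells, was called (2.0 ± 0.39, adjusted p = 0.0327) but missed the threshold without that array (1.8, adjusted p = 0.0520). Against FP-low, 11 of 12 T cell and lymphocyte genes had lower means, and the other, the leukocyte gene Ptprc, was called higher (1.0 ± 0.17, adjusted p = 0.0191). Of 10 fibroblast genes 6 had lower means, by a median of -0.06 over the list, and the matrix gene Dcn was called higher (2.46 ± 0.48, adjusted p = 0.0410). Of 6 Paneth cell genes 5 had lower means than in FP-low, by a median of -1.72, with 0 called. FP-high replicate 1 enters this comparison only through the shared spread, and with it left out the lysozyme Lyz1 and the defensin Defa24 were called lower, with adjusted p of 0.0236 and 0.0382. So were Olfm4 of the stem cell list and Lyz2 of the macrophage list, while the endothelial genes Cdh5 and Emcn were called higher, with adjusted p of 0.0173 to 0.0369. The mean of the enterocyte list lay between -0.22 and 0.30 on the adenoma arrays relative to FP-low. Against FP-high, 11 of 14 enterocyte genes had lower means in adenomas, by a median of -0.68. Without FP-high replicate 1 all 14 had, by a median of -1.34, with 0 called either way. The part of these genes in the values of the repair genes was not tested.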

How the data were processed

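The labels' protocols give RNA extraction from isolated crypts and amplification. The authors deposited log2 values per probe set, made with Affymetrix Expression Console and Transcriptome Analysis Console, per the submitters' processing notes. Program versions, background correction and normalization were not given in the sources used here. Gene names came from GEO's platform annotation, and 12146 probe sets without a symbol were left out of the tests. No sample column was left out (0).

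Each comparison was fitted with limma 3.58.1 (lmFit and eBayes) in R 4.3.3 on all 13 arrays in 3 groups, with 1 spread per probe set. The test is two-sided, and an adjusted p under 0.05 is a call. The script was tested on simulated data. There were 9 alternatives to the main fit. These were quantile normalization, arrays centred on their medians, array weights, the replicate number as a block and dim probe sets left out. Also tried were all probe sets with or without a symbol, only the 2 groups compared, eBayes with its trend and robust options, and the mean of a gene's probe sets. In addition each array was left out in turn.

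The 42 genes, the lists and the tests were chosen with earlier results of these data known. Values on each array are given for genes called or among the 6 smallest p of a comparison. From the lists of other repair genes together, of p53 targets and of cell division genes together, the called genes or, as none was called, the 3 with the smallest p are named.

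Arrays of adenoma and FP-high with the same number had correlated deviations (0.233, 0.103 and 0.220, all over the bound of 0.1). Pairs with FP-low ranged from -0.361 to 0.178, and of these only FP-high with FP-low replicate 2, at 0.178, was over the bound. The labels do not say whether arrays of the same number belong together. These correlations do not show which arrays share an animal, and the main fit did not pair them.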

Additional observations from a re-analysis of the deposited data

Results flagged for a closer look

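In 5 of 80 sets of values, each a gene in the FP-high or the FP-low group, 1 array lay far from the others of its group by Dixon's criterion. Chance alone flags about 1 in 20 such sets. Chek1 stood at 6.09 on FP-high replicate 3, where the other FP-high arrays lay between 3.94 and 4.19. On FP-high replicate 1, Palb2 stood at 4.19, above a range of 3.43 to 3.51, and Xrcc3 at 4.93, below a range of 5.71 to 5.85. On FP-low replicate 3, Xrcc1 stood at 6.10, above a range of 5.53 to 5.72, and Mutyh at 5.24, above a range of 4.78 to 4.79. Groups of 3, such as the adenomas, were not examined in this way.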

How the results depend on the processing

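Across the alternatives tried, no median difference of the 40 genes changed sign. The number of the 40 genes called was 0 under each of them, except for Parp1 in adenoma against FP-low (1 gene under quantile normalization and 1 with array weights) and for Chek1 in FP-high against FP-low without FP-high replicate 3. Leaving out arrays in turn gave 0 to 1 called genes in FP-high against FP-low and 0 in each adenoma comparison. It gave medians of -0.36 to -0.21 for FP-high against FP-low, -0.18 to -0.11 for adenoma against FP-low and 0.06 to 0.19 for adenoma against FP-high. The lowest of the last was without FP-high replicate 4. With dim probe sets left out, 30 genes stayed and the FP-high against FP-low median was -0.51. The median over all probe sets that stayed is not given here. With the replicate block the medians were -0.32, -0.17 and 0.20, with 0 of the 40 genes called in each comparison.

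Over all probe sets, FP-high against FP-low gave 0 calls, 1 under quantile normalization, 3 with array weights and 0 to 136 with an array left out. These were 136 without FP-high replicate 3, 12 without replicate 2 and 6 without replicate 4, and 1 without FP-low replicate 3 or replicate 6. Adenoma against FP-low gave 129 calls, 868 with array weights, 37 with the replicate block, 78 without dim probe sets, 343 with only the 2 groups in the fit and 78 to 370 with an array left out (370 without FP-high replicate 1, 82 without adenoma replicate 1, 78 without adenoma replicate 2). Adenoma against FP-high gave 179 calls, 594 with array weights, 51 with the replicate block, 46 with only the 2 groups and 72 to 281 with an array left out (281 without FP-high replicate 3, 72 without adenoma replicate 1, 88 without adenoma replicate 2). The cause of these shifts was not tested.

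Of the 40 genes, 13 had an unadjusted p under 0.05 in FP-high against FP-low, and 8 without FP-low replicate 4. In adenoma against FP-low 4 had, and 2 with the replicate block or without adenoma replicate 1, and 7 with only the 2 groups. In adenoma against FP-high 7 had, and 2 without adenoma replicate 1, 3 without adenoma replicate 3 and 4 with only the 2 groups. The direction of Bard1 and Nbn depended on the probe set read.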
